A study of Mus musculus with 3 samples.

Results

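Chemokines, chemokine receptors, integrins, selectins, immunoglobulin-family adhesion molecules and sphingosine-1-phosphate (S1P) receptors were described here as 1 set of migration genes. A gene was a member when its symbol belonged to one of these families and its probe carried exactly 1 gene symbol, and Ccr7, Itgb7, Xcl1 and Ccl5 were left out. This gave 47 of the 6795 genes on the arrays, each measured by 1 probe. They were 22 chemokines, 3 chemokine receptors, 13 integrin chains, 4 immunoglobulin-family adhesion molecules, 1 selectin, 3 S1P receptors and Itgbl1, which has an integrin-like symbol but is not a receptor chain. The members were chosen by name and the rule holds no measured value, but earlier results of these data were known when it was written. The genes left out by name were all called higher in CD69hi RNA. Counts over the set are therefore no independent evidence.

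The 3 arrays each compared a pair of mouse thymocyte RNAs. One was total RNA of CD69hi cells purified from wild-type thymus, whose source the labels give as B6. The other came from the whole, unseparated thymocytes of Zap70-/- mice, which the array titles call CD69lo. Zap70 is a kinase that passes on the T cell receptor (TCR) signal, and CD69 is a surface protein that signalled thymocytes raise. The comparison thus sets signalled cells beside the thymocytes of mice that lack this kinase. The RNAs differ in genotype, in purification and possibly in cell makeup at once, and no value below can be assigned to 1 of these. Age, sex, number of mice and pooling are not given in the labels. Whether different mice gave the RNA of each array is also not said, and the spread between arrays, on which every p-value rests, may be technical.

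Each array gave 1 log ratio per probe with no spot intensity. A value of 1 therefore means 2-fold more RNA in the CD69hi sample, and levels of different genes cannot be set against each other. The base of the logarithm is taken as 2. Cy3 labelled the CD69hi RNA on arrays 1 and 2 while Cy5 did so on array 3, and the sign of the values from arrays 1 and 2 was turned so that each ratio reads CD69hi over Zap70-/-. The direction is likely rather than stated by the submitters. Its basis is the labelled dyes together with Rag1 and Dntt, genes of immature thymocytes, which had mean log2 ratios of -1.19 ± 0.36 and -1.05 ± 0.71 (SD, n = 3; adjusted p = 0.035 and 0.12), and under the opposite reading every sign would turn. As deposited, array 3 correlated at r = -0.25 with array 1 and r = -0.41 with array 2 across the 8905 features, and arrays 1 and 2 at r = 0.62. The sorting marker Cd69 and the deleted gene Zap70 were not analysed here and give no check of the labels. The number of arrays limits the precision. In bulk RNA, a gene carried by fewer cells and a gene with less RNA per cell cannot be told apart. Of 10 measured thymocyte markers 1 was called higher (Lef1, 1.16 ± 0.17) and 1 lower (Rag1) in CD69hi RNA. Of their means 8 lay below 0 (list median -0.25). Thy1 was at 0.06 ± 0.09 and Cd3e at -0.21 ± 0.11, while Cd8a was at -1.13 ± 0.62 without a call (SD, n = 3). Ratios near 0 say that both RNAs gave like signal. Without intensities the presence of these transcripts was not checked, so like amounts and absence from both RNAs cannot be told apart.

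Chemokines are small secreted proteins that steer cells carrying the matching G protein-coupled receptor. Integrins are paired alpha and beta chains that bind matrix or counter-receptors such as ICAM-1 and VCAM-1, and chemokine signals switch them to a high-affinity form. In the thymus these systems guide thymocytes from the cortex, where positive selection takes place, to the medulla, and the receptor S1PR1 then lets mature cells follow S1P out into the blood.

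Of the 47 members, 9 were higher and 3 lower in CD69hi RNA, and 35 did not pass (limma, Benjamini-Hochberg adjusted p at most 0.05 over all 8905 features). The 12 called members are 25.5% of the set, beside 6.94% of all features called in either direction, 4.13% called higher and 2.81% called lower. The median over the members was 0.15, against 0.01 over all features. The risers were the chemokines Ccl22, Ccl8 and Cxcl10, the integrin chains Itgb3, Itgb2 and Itgae, the adhesion molecules Vcam1 and Icam1, and S1pr1. The integrin chains Itga4, Itga6 and Itgb4 fell. These 12 were also the only members with a mean of at least 1 in size, that is a 2-fold difference. On every array a 2-fold higher value was seen for 7 members, beside 1.89% of all features, and a 2-fold lower value for 0 members, beside 0.955%. A like sign on all 3 arrays was seen in 25 of 47 members (53.2%), beside 47.0% of all features.

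The number of calls depended most on array 2. Without it 2 members were called (4.26%, beside 1.34% of features), Ccl22 and Vcam1. Without array 1 there were 8 (17.0%, beside 2.26%) and without array 3 also 8 (17.0%, beside 7.77%), though both arrays left then carry Cy3 on the CD69hi RNA, so that dye and RNA cannot be told apart there. Ccl22 was the 1 member that passed whichever array was left out.

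Among the 15 CC chemokines, 2 rose and 0 fell (13.3% called, beside 6.94% of all features), with a median of 0.15. Ccl22, which attracts cells bearing CCR4 and is made by medullary dendritic and epithelial cells, had log2 ratios of 2.74, 3.47 and 3.01 on arrays 1, 2 and 3. All 3 lay far above 0 and within 0.72 of each other, and the mean of 3.07 ± 0.37 (SD, n = 3) was an 8.42-fold difference (adjusted p = 0.0068). Ccl8, a monocyte and T cell attractant, gave 1.58, 1.59 and 1.45, a 2.90-fold difference with the arrays almost on top of each other (mean 1.54 ± 0.08, adjusted p = 0.011). Leaving out array 2 ended the call of Ccl8 (adjusted p = 0.058).

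The promoters of called members held in the RefSeq table (GRCm38.p6) are shown to give the sequence context of the genes that rose and of 1 that fell, as the 250 bases before each annotated start. There were 5 such windows among the 12 called members. Capitals mark matches, on either strand, to the NF-kappaB consensus, the site of a factor that TCR and inflammatory signals activate, and to CACCC, read as GGGTG on the other strand, a sequence that Krüppel-like factors such as KLF2 bind.
Ccl22, chr8:94745434-94745683, plus strand: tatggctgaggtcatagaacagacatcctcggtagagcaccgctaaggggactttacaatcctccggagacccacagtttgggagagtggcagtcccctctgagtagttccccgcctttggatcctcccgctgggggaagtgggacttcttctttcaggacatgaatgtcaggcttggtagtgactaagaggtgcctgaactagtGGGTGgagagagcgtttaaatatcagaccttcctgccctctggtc
Ccl8, chr11:82114935-82115184, plus strand: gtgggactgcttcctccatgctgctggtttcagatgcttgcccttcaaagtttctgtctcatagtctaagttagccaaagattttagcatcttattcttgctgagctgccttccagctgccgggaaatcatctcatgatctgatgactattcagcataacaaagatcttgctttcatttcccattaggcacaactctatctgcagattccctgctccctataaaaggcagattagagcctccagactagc
Cxcl10, chr5:92348890-92349139, minus strand: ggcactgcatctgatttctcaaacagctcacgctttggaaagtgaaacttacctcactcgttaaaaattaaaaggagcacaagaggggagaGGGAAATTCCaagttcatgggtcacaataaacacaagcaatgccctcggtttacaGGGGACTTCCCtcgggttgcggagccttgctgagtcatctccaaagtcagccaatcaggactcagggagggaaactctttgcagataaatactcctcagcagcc
Icam1, chr9:21015690-21015939, plus strand: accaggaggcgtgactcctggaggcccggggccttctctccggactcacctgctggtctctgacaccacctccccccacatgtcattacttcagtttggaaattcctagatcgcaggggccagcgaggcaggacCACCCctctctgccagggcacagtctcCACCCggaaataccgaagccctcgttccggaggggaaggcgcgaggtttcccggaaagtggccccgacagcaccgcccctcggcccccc
Itga4, chr2:79255176-79255425, plus strand: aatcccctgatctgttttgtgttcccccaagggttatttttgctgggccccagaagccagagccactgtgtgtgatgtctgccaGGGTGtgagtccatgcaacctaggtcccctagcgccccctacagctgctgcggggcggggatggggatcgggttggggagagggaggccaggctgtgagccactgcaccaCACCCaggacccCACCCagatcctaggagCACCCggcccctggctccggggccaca
The Cxcl10 window held 3 NF-kappaB matches, 1 from 159 to 150 bases before the start and an overlapping pair between 104 and 94. The Ccl22, Ccl8, Icam1 and Itga4 windows held 0. Only the strict pattern GGGRNNYYCC was searched, where R is A or G, Y is C or T and N is any base. Strings that differ from it were not marked, such as TGGAAATTCC in the Icam1 window, so 0 does not mean that such a site is absent. Of all 32851 windows of the same length, 7.25% held at least 1 such match. CACCC was found 4 times in the Itga4 window, 2 times in Icam1, 1 time in Ccl22 and 0 times in Ccl8 and Cxcl10, and 52.0% of all windows held it. Over the 32 members with a window, 3 had an NF-kappaB match (Cxcl10, Ccl9 and Ccl20) and 21 had CACCC. A match is a string of letters and was not tested as a binding site.

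The other 13 CC chemokines did not pass. Ccl12, a CCR2 ligand, read 0.58, 1.11 and 0.65 (mean 0.78 ± 0.29, adjusted p = 0.064). Ccl4, an inflammatory chemokine, read 0.58, 0.99 and 0.52 (mean 0.70 ± 0.26, adjusted p = 0.074). Both lay above 0 on every array without reaching the threshold. Ccl17, the other CCR4 ligand, read 0.02, 1.18 and 0.80, with array 1 close to 0 (mean 0.67 ± 0.59, adjusted p = 0.21, 95% interval 0.01 to 1.33). Ccl9, Ccl11, Ccl20, Ccl3, Ccl7, Ccl28, Ccl6, Ccl27a, Ccl2 and Ccl25 had means from -0.29 to 0.33. Ccl25, the thymic ligand of CCR9, had the lowest of these (-0.25, -0.46 and -0.17, mean -0.29 ± 0.15, adjusted p = 0.27). Ccl11 shows how far arrays could differ, with -0.23 and -0.31 on arrays 1 and 2 and 1.31 on array 3.

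The CC chemokine genes lie in clusters, and neighbours did not share one value. By the RefSeq order on chromosome 8, Ccl22, Cx3cl1 and Ccl17 follow each other with 0 protein-coding genes between, and their means were 3.07, 0.01 and 0.67. On chromosome 11, the run Ccl2, Ccl7, Ccl11, Ccl12 and Ccl8 had means of -0.24, 0.06, 0.26, 0.78 and 1.54, and the run Ccl5, Ccl9, Ccl6, Ccl3 and Ccl4 had 1.05, 0.33, -0.08, 0.11 and 0.70. Ccl22 and Ccl8 are thus beside genes that were not called. Differences between these neighbours were not tested. Probes of related chemokines can bind each other's transcripts, and this was not tested either.

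Of the 7 CXC and CX3C chemokines 1 rose and 0 fell (14.3% called, beside 6.94% of all features, median 0.01). Cxcl10, an interferon-induced ligand of CXCR3, read 1.06, 1.27 and 0.77, a 2.05-fold difference (mean 1.03 ± 0.25, adjusted p = 0.033). Its call ended when array 1 or array 2 was left out (adjusted p = 0.13 and 0.23) and when the arrays were scaled to a common spread (adjusted p = 0.058). Cxcl9, another CXCR3 ligand that lies 1 protein-coding gene away, read 0.17, 1.06 and -0.73, with no common sign (mean 0.17 ± 0.90, adjusted p = 0.81). Cxcl12, the CXCR4 ligand of the thymic cortex, read -0.12, -0.09 and 0.51 (mean 0.10 ± 0.35, adjusted p = 0.77). Cxcl15 had the lowest mean of the group, -0.39 ± 0.31 (adjusted p = 0.25), below 0 on all arrays. Cxcl14, Cxcl5 and Cx3cl1 had means between -0.06 and 0.01, and Cx3cl1 ran from -0.96 on array 3 to 0.66 on array 2.

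Chemokine receptors were few on the arrays, and 0 of 3 passed (limma; 1 had a p of at most 0.05 before adjustment). Cxcr5, which responds to the B cell zone chemokine CXCL13, was above 0 on each array (0.59, 0.82 and 0.28, mean 0.57 ± 0.27, adjusted p = 0.12). So was Cx3cr1, the fractalkine receptor of monocytes and macrophages, at 0.10, 0.37 and 0.69 (mean 0.39 ± 0.29, adjusted p = 0.25). Ccr2, the receptor of inflammatory monocytes, read 0.71, 0.28 and -0.55 and had no common sign (mean 0.15 ± 0.64, adjusted p = 0.78).

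**Figure D1:**
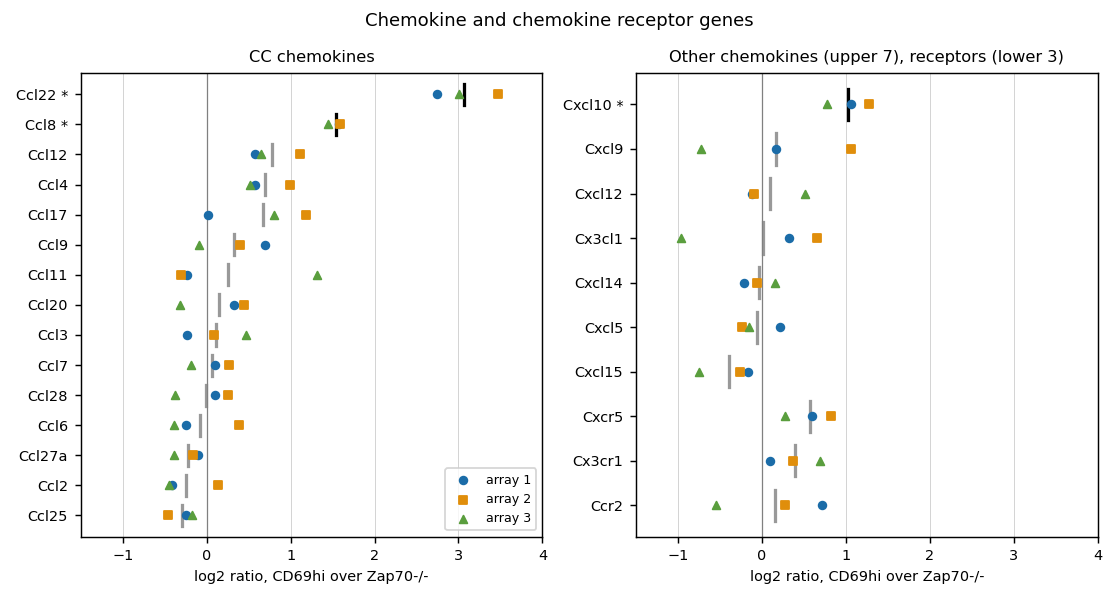
Log2 ratio of CD69hi over Zap70-/- RNA (x axis) for the 15 CC chemokines (left) and for the 7 other chemokines and 3 receptors (right), with 1 symbol per array, a bar at the mean of 3 arrays (black where called, grey where not) and an asterisk for called genes. Ccl22 stands alone at a mean of 3.07, Ccl8 has its arrays between 1.45 and 1.59, and most other genes straddle 0.

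Integrin chains moved in both directions: of 13, 3 rose, 3 fell and 7 did not pass (46.2% called, beside 6.94% of all features). Itgb3, the beta chain shared by the vitronectin receptor and the platelet fibrinogen receptor, had the highest ratios, 1.56, 2.51 and 3.04. Array 3 lay 1.48 above array 1, and all were more than 2-fold above the Zap70-/- RNA (mean 2.37 ± 0.75, 5.17-fold, adjusted p = 0.026). Without array 2 or array 3 the adjusted p was 0.053 in each case. The alpha chains that pair with it did not follow: Itgav read 0.08, 0.30 and -0.12 (mean 0.09 ± 0.21, adjusted p = 0.77), and the platelet chain Itga2b 0.09, -0.04 and -0.30 (mean -0.08 ± 0.19, adjusted p = 0.76). The ranges of Itgb3 and of both alpha chains did not overlap, although the differences between the genes were not tested.

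Itgb2, the common beta chain of the leukocyte integrins, gave 1.17, 1.39 and 1.63, a 2.64-fold difference (mean 1.40 ± 0.23, adjusted p = 0.018). Leaving out array 2 ended its call (adjusted p = 0.084). Its lymphocyte partner Itgal, with which it forms LFA-1, read 0.49, 1.06 and 1.30 and was above 0 on every array, but did not pass (mean 0.95 ± 0.42, adjusted p = 0.064, 95% interval 0.43 to 1.47). The myeloid partner Itgam, with which it forms Mac-1, stayed between -0.07 and 0.18 (mean 0.04 ± 0.13, adjusted p = 0.88, 95% interval -0.30 to 0.38).

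Itgae encodes CD103, the alpha chain that joins integrin beta 7 and binds E-cadherin on epithelium. It read 0.93, 1.44 and 1.51, a 2.45-fold difference (mean 1.29 ± 0.32, adjusted p = 0.028), and lost its call when array 2 or array 3 was left out (adjusted p = 0.13 and 0.055). Its partner Itgb7, outside the rule, read 1.92, 2.30 and 2.53. Both chains of this pair thus lay above 0 on all 3 arrays.

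The 3 chains that fell include a known pair. Itga6 and Itgb4 form the laminin receptor of epithelial hemidesmosomes, and Itga6 also pairs with Itgb1 on early thymocytes. Itga6 read -1.10, -0.92 and -1.03, a 2.03-fold difference with little spread (mean -1.02 ± 0.09, adjusted p = 0.024). Itgb4 read -0.88, -1.28 and -2.07 (mean -1.41 ± 0.61, adjusted p = 0.048), and its arrays were all below 0 but up to 1.19 apart. Itga4, the alpha chain of the VCAM-1 receptor VLA-4 and of the gut-homing integrin with beta 7, read -0.94, -1.11 and -1.14 (mean -1.06 ± 0.11, 2.09-fold, adjusted p = 0.023). Itgb1, the beta chain of VLA-4, was close to the same on each array, -0.28, -0.33 and -0.34, and did not pass (mean -0.31 ± 0.03, adjusted p = 0.22). Itgb7, the other beta chain of Itga4, read 1.92, 2.30 and 2.53, so Itga4 and Itgb7 had opposite signs on all 3 arrays.

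None of these falls kept its call without array 1 or without array 2. The adjusted p was 0.088 and 0.16 for Itga4, 0.12 and 0.15 for Itga6, and 0.066 and 0.14 for Itgb4 in these 2 fits. Itgb4 also missed the threshold without array 3 (adjusted p = 0.052) and with each probe fitted alone (adjusted p = 0.050 after rounding), and Itga6 missed it with scaled arrays (adjusted p = 0.056). The direction held in all of these fits. The remaining alpha chains, Itga5 of the fibronectin receptor and Itga10 of a collagen receptor, had means of 0.09 ± 0.17 and 0.14 ± 0.34 and signs that differed between arrays. Itgbl1 read -0.16, -0.20 and 1.33 (mean 0.32 ± 0.87, adjusted p = 0.64).

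Of the counter-receptors of integrins, Vcam1 and Icam1 rose. Vcam1, the VLA-4 ligand of stromal cells, endothelium and some macrophages, read 2.76, 1.60 and 1.53, with array 1 apart from the others (mean 1.97 ± 0.69, 3.91-fold, adjusted p = 0.032). Its call ended when array 3 was left out, when the arrays were scaled and when a term for the dye was fitted (adjusted p = 0.059, 0.100 and 0.053). Icam1, an LFA-1 ligand that activated lymphocytes and myeloid cells also carry, read 1.40, 1.51 and 1.56, all within 0.16 of each other (mean 1.49 ± 0.08, 2.82-fold, adjusted p = 0.011), and missed the threshold without array 2 (adjusted p = 0.062). Icam2, another LFA-1 ligand, read -0.28, -0.23 and 0.16 (mean -0.11 ± 0.24, adjusted p = 0.70), and Icam5, a neuronal member, read 0.26, 0.03 and -0.06 (mean 0.08 ± 0.17, adjusted p = 0.78). Icam5 lies near Icam1, with 1 protein-coding gene between. The VLA-4 ligand and receptor thus had opposite signs on all 3 arrays, with Vcam1 above 0 and Itga4 below.

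P-selectin, encoded by Selp and known from platelets and endothelium, was the selectin measured. It read 0.26, 0.18 and 1.23 and did not pass (mean 0.55 ± 0.58, adjusted p = 0.27), though it did with a dye term (0.72, adjusted p = 0.038).

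S1pr1, the receptor needed for egress from the thymus, rose 3.59-fold. Its ratios were 1.30, 1.90 and 2.33, each more than 2-fold (mean 1.84 ± 0.52, adjusted p = 0.024), and it missed the threshold without array 2 (adjusted p = 0.065). S1pr4, a lymphocyte S1P receptor, read 0.37, 0.41 and 0.25 (mean 0.35 ± 0.08, adjusted p = 0.20), and S1pr2, which opposes migration in several cell types, read 0.67, 0.09 and 0.05 (mean 0.27 ± 0.35, adjusted p = 0.43). The lowest S1pr1 value exceeded the highest value of both other receptors. Klf2, the transcription factor known to drive S1pr1, read 2.10, 2.40 and 2.78 (mean 2.43 ± 0.34, adjusted p = 0.0094).

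**Figure D2:**
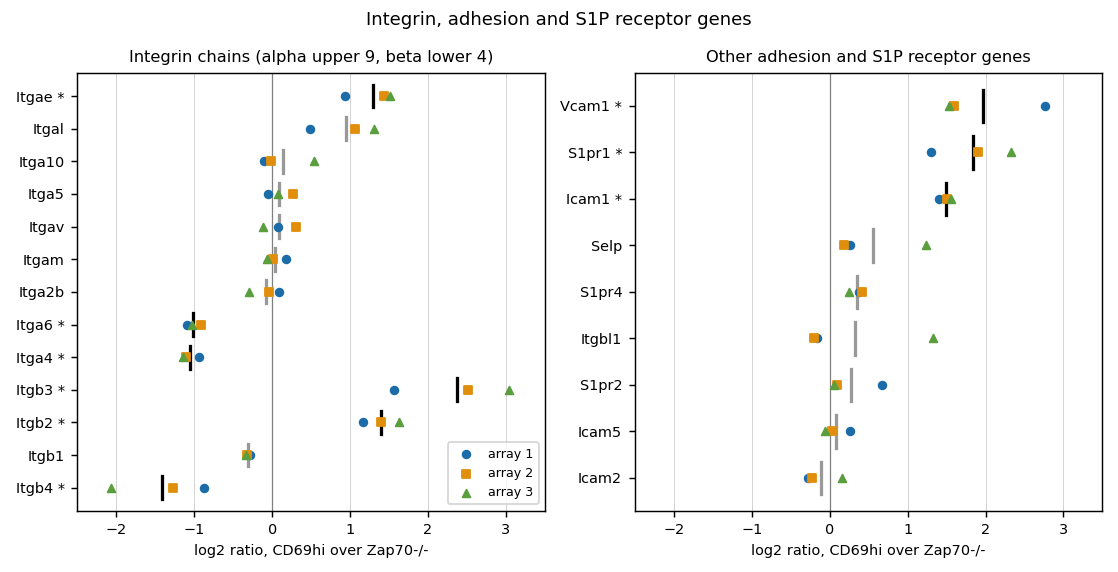
Log2 ratio of CD69hi over Zap70-/- RNA (x axis) for the 13 integrin chains (left) and for the other adhesion genes, S1P receptors and Itgbl1 (right), with 1 symbol per array, a bar at the mean of 3 arrays (black where called, grey where not) and an asterisk for called genes. Itgb3, Itgb2 and Itgae lie above 0 on all arrays and Itga4, Itga6 and Itgb4 below 0 on all arrays.

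The genes of the same families that the rule left out had log2 ratios of 3.25 ± 0.44 for the lymph node and medulla homing receptor Ccr7, 2.25 ± 0.30 for Itgb7, 1.31 ± 0.25 for Xcl1, the ligand of the dendritic cell receptor XCR1, and 1.05 ± 0.24 for Ccl5, a T cell attractant. The highest member, Ccl22, lay between Ccr7 and Itgb7. Ccr7 and Itgb7 passed whichever array was left out. Xcl1 lost its call when array 2 was left out (adjusted p = 0.12). For Ccl5 this happened when array 1 or array 2 was left out or the arrays were scaled (adjusted p = 0.13, 0.21 and 0.054).

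**Figure D3:**
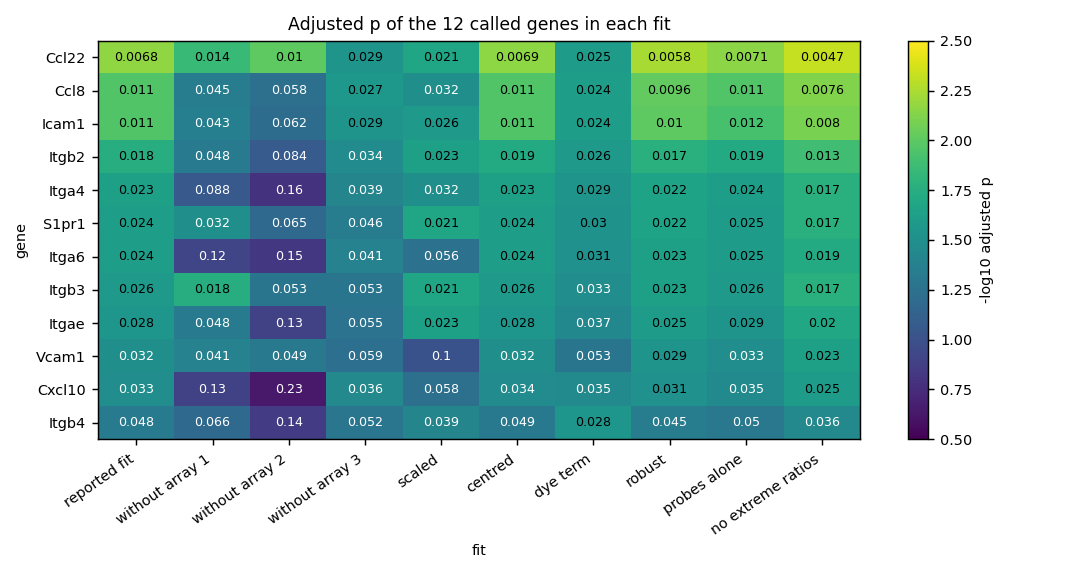
Adjusted p (printed in each cell, colour on a -log10 scale) of the 12 called members (y axis) in the reported fit and in 9 alternative fits (x axis). The column without array 2 holds 10 values above 0.05, and the row of Ccl22 stays between 0.0047 and 0.029.

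Genes that act beside the members were read from 7 lists. Of 104 measured genes, 10 were higher, 2 lower and 92 did not pass, which is 11.5% called beside 6.94% of all features, with a median of 0.09. Leaving out array 1 gave 6 higher and 1 lower, leaving out array 2 gave 3 and 0, and leaving out array 3 gave 8 and 4. Cd53, Cd44 and Klf2 passed whichever array was left out.

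In chemokine receptor signalling 1 of 20 genes rose and 0 fell. That was Arrb2, the beta-arrestin that binds activated receptors and stops their signal (1.11, 1.14 and 1.45, mean 1.23 ± 0.19, adjusted p = 0.020), whose call ended when array 1 or array 2 was left out (adjusted p = 0.072 and 0.11). Of 9 atypical receptors and chemokine-like genes 0 passed (limma; 1 had a p of at most 0.05 before adjustment). The scavenging receptor Ackr3 (mean 0.45 ± 0.24, adjusted p = 0.17) and Ccrl2 (mean 0.60 ± 0.72, adjusted p = 0.31) had the smallest p-values of these.

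Integrin activation and focal adhesion had 3 of 19 genes higher and 0 lower (15.8% called, beside 6.94% of all features). The GTPase Rap1a, which drives integrins to high affinity, had a mean of 1.03 ± 0.28 (adjusted p = 0.036). The kinase Ptk2b (1.24 ± 0.16, adjusted p = 0.020) and the actin regulator Vasp (1.35 ± 0.35, adjusted p = 0.028) rose as well. Leaving out array 2 ended the call of Vasp and of Ptk2b (adjusted p = 0.12 each), and leaving out array 1 that of Ptk2b (adjusted p = 0.064). Rap1a passed in none of the fits that leave out an array (adjusted p from 0.064 to 0.24), nor beside a dye effect (adjusted p = 0.051).

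Of 24 other adhesion molecules 3 rose and 0 fell (12.5% called, beside 6.94% of all features). They were the tetraspanins Cd53 (3.17 ± 0.23, adjusted p = 0.0051) and Cd82 (1.59 ± 0.17, adjusted p = 0.012), and the hyaluronan receptor Cd44 (2.15 ± 0.33, adjusted p = 0.011). Cd82 lost its call when array 2 was left out (adjusted p = 0.058). In the list of selectin ligands 1 of 7 rose (14.3%), the sialomucin Spn (0.75 ± 0.12, adjusted p = 0.044). In the list of S1P metabolism and egress 1 of 6 rose (16.7%), Klf2. The 19 matrix ligands (15.8% called) were the 1 list with genes lower. These were the basement membrane proteoglycan Hspg2 (-1.28 ± 0.19, adjusted p = 0.020) and the fibulin Fbln2 (-1.58 ± 0.49, adjusted p = 0.030), while the integrin-binding protein Mfge8 was higher (0.71 ± 0.07, adjusted p = 0.044). Spn and Mfge8 passed in no fit that leaves out an array, and of these fits Hspg2 and Fbln2 passed in the 1 without array 3. With scaled arrays Fbln2, Spn and Mfge8 did not pass (adjusted p = 0.054, 0.057 and 0.063).

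Other cells also express several called members, and marker lists of 8 kinds of cell were read on the same arrays. Shares called in these lists stand beside 6.94% of all features. Of 23 macrophage and dendritic cell markers, 15 rose and 0 fell (65.2% called), with a median of 1.22 and medians of 1.28, 1.61 and 1.34 on arrays 1, 2 and 3. The means ran from 0.07 for Marco to 2.83 for Ctss, with Lyz2 at 2.51 ± 0.08 and C1qa at 2.23 ± 0.09. Ccl22, Ccl8, Cxcl10, Vcam1, Icam1 and Itgb2 are known from such cells as well, and rose in the same RNA as these markers. Members that mark the same cells did not all follow, since Itgam (0.04), Ccr2 (0.15), Cx3cr1 (0.39), Ccl6 (-0.08) and Ccl9 (0.33) did not pass. The part of these cells in the ratios was not tested.

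In the granulocyte and mast cell list 0 of 12 rose and 1 fell (S100a8, 8.33% called, median -0.68). Before adjustment 9 had a limma p of at most 0.05, and 11 had a like sign on all 3 arrays. The lowest means were those of S100a9 (-1.98 ± 1.17) and Ngp (-1.63 ± 1.07), and 3 of the 12 means lay above 0. Endothelial, mesenchymal and platelet markers had 0 of 15 called (limma; 3 had a p of at most 0.05 before adjustment), with a median of 0.20 beside Itgb3 at 2.37 and Vcam1 at 1.97. Among thymic epithelial markers 0 of 10 rose and 1 fell (Cldn4, -0.94 ± 0.25), with a median of -0.18 beside Itgb4 at -1.41 and Itga6 at -1.02. In this list 8 of the 10 means lay below 0, and 2 genes had a limma p of at most 0.05 before adjustment. Epcam was at -0.94 ± 0.60 without a call. Of 8 natural killer and innate-like T cell markers 2 rose and 1 fell (37.5% called), and of 8 B cell and plasma cell markers 1 rose and 0 fell (12.5%). Of 5 erythroid markers 0 passed (limma, with 2 at a p of at most 0.05 before adjustment).

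**Figure D4:**
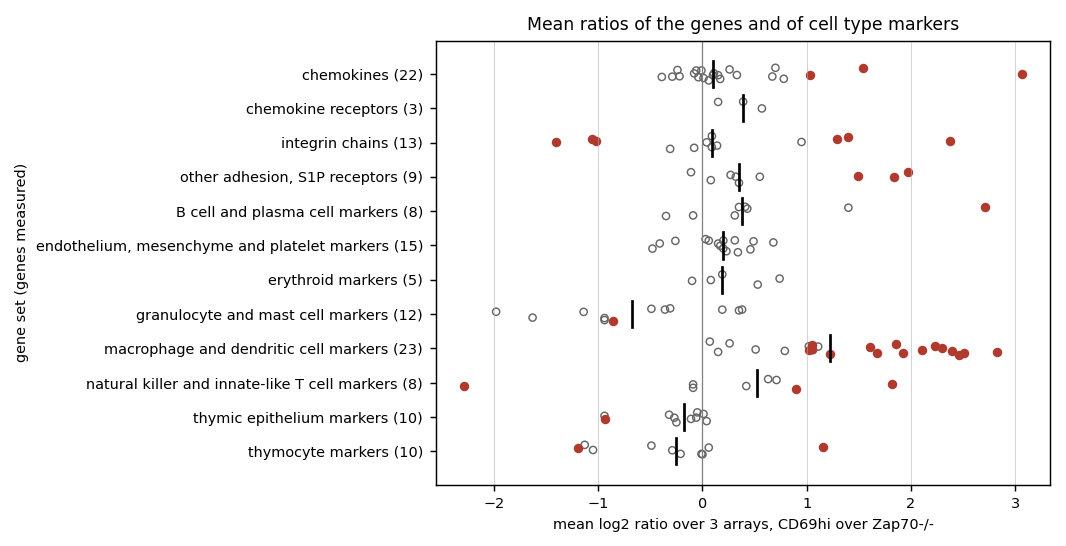
Mean log2 ratio over 3 arrays (x axis) of each member, by family, and of each measured marker of 8 cell types (y axis, number of genes in brackets), with filled points for called genes, open points for others and a bar at each set's median. The macrophage and dendritic cell markers have the median farthest above 0, at 1.22, and the integrin chains have called genes on both sides of 0.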

How the data were processed

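RNA of CD69hi wild-type and unseparated Zap70-/- thymocytes was hybridised on 3 spotted 2-colour arrays, per the labels. The authors deposited 1 log ratio per probe and array, taken as log2 of Cy5 over Cy3. The sources used here name no background correction, normalization or log base, and dim spots could not be removed. The platform annotation gave 7486 of 9596 probes exactly 1 symbol, and their values were averaged per symbol (0 symbols changed through RefSeq identifiers); the other probes stood alone, giving 8905 features. Ratios of arrays 1 and 2 were multiplied by -1.

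A limma model (version 3.58.1, R 4.3.3; lmFit, then eBayes) with 1 coefficient was fitted to every feature, with 2 residual and 2.75 prior degrees of freedom. Two-sided p-values were adjusted over all features by Benjamini-Hochberg, with 0.05 as threshold. Intervals are 95% moderated t intervals. Tested on simulated data of this spread (5 runs of 8905 features), the model called 13.8% of changes with size 1 and 84.2% with size 2. Of 517 calls 27 were false. The simulation drew its spread from the model's own prior and changed a smaller share of features than the 6.94% called here. These rates therefore need not hold for the real arrays.

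Members and lists were chosen with earlier results of these data known, so they are no independent evidence. Named were all called members, the members not called with the largest mean ratios in each family, and the called genes of each pathway list; others are named to account for every member. Alternatives left out each array, scaled or centred the arrays, added a dye term, used robust shrinkage, fitted probes alone, left out features beyond 4 in size, or left the arrays unturned. Promoter windows came from RefSeq (GRCm38.p6). The planned protein sequences were not used here.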

Additional observations from a re-analysis of the deposited data

How the results depend on the processing

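With each array centred on its median, with robust shrinkage and without features beyond 4 in size, all 12 called members kept direction and call. With scaled arrays 9 did, with a dye term 11 and with each probe alone 11. Without 1 array the number of members called higher ran from 2 to 8 and lower from 0 to 2, and the number of pathway genes called higher from 3 to 8 and lower from 0 to 4. Pathway genes called were 17 higher and 6 lower with a dye term, and 4 lower without extreme ratios. With the arrays unturned, 0 members and 0 pathway genes were called in either direction; single ratios are not given for that fit, since its mean is no ratio of CD69hi over Zap70-/-. The signs of single members were followed for 18 of the 35 members not called. Others could also turn, such as Ccl11, which was below 0 on arrays 1 and 2 against a mean of 0.26. Among the 18, signs reversed for Cxcl9 without array 2 (-0.28) and with a dye term (-0.06), and for Icam5 without array 1 (-0.02). They also reversed for Cxcl12, Itga10 and Itgbl1 without array 3 (-0.10, -0.05 and -0.18). Over the fits that leave out an array their highest values were 0.62 for Cxcl9, 0.15 for Icam5, 0.21 for Cxcl12, 0.26 for Itga10 and 0.58 for Itgbl1. With a dye term Selp and Itgbl1 passed (0.72 and 0.57, adjusted p = 0.038 and 0.047). In that fit the residual spread comes from arrays 1 and 2 only, which share a dye orientation. Itgbl1 read -0.16, -0.20 and 1.33 on arrays 1, 2 and 3 and still passed. The same limit holds for the pathway genes called with a dye term. The causes were not tested, though each fit without an array, like the fit with a dye term, has fewer residual degrees of freedom. Each ratio already pairs both RNAs within an array, and there is no second group to block by replicate. No spot intensities were used, so signal over background was not checked.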
